A study of Mus musculus with 2 samples.

Results

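Genes of the extracellular matrix and of the proteases that remodel it were examined in RNA of mouse liver, measured on 2 Affymetrix oligonucleotide arrays. Members were all genes named by symbol as collagen chains, laminin chains, fibulins, fibrillins, matrix metalloproteinases (Mmp) or ADAMTS proteases, with 16 further matrix genes listed by name. This gave 71 genes read by 100 probe sets, out of 8251 named genes and 10833 probe sets on the array, and 14 of the 16 listed by name were among them. Genes were taken by symbol and not by signal, under a rule chosen with earlier results of these data known. Both samples were total RNA that a commercial supplier, Clontech, sells as 1 liver catalogue item, and they were untreated as far as the labels say. Not given in the sources used here were strain, age, sex, the number of animals and how the RNA was prepared. Both titles name liver, whereas the source field of both names spleen. The labels thus define 1 group of 2 replicates and no contrast, so there was no test between groups and replicate spread here may reflect only technical variation.

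The extracellular matrix is the protein scaffold outside cells. Fibrillar collagens form its tensile fibres, basement membranes of type IV collagen, laminin, nidogen and perlecan underlie epithelia and vessels, and proteoglycans and glycoproteins bind fibres, growth factors and cell receptors. Healthy liver holds little of it: the plates of hepatocytes face sinusoids that lack a continuous basement membrane. Stellate cells, portal fibroblasts, endothelium and hepatocytes each make part of it, and the balance of synthesis against breakdown by metalloproteinases changes in fibrosis.

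A gene was read from its brightest probe set, and a signal is the deposited linear intensity in arbitrary units. For the background threshold, 93 genes known from striated muscle, retina and lens, brain or testis were used. Their 95th percentile fell at 556.2 on replicate 1 and 601.7 on replicate 2. The median signal of all probe sets was 163.2 and 157.6. Brightness depends on the probes of a set, so each gene is set against the threshold and no gene's signal is read as more or less RNA than another gene's. A gene under the threshold is called not above background, which does not mean absent. The tissue was checked against cell markers. All 16 measured hepatocyte genes were above background on both arrays, and 1 of 18 B and T lymphocyte genes was, against 25.0% of all named genes. The lymphocyte gene was the kinase Zap70 (834.3 and 880.5 on replicates 1 and 2). The adaptor Lat (583.8 and 409.9) and the immunoglobulin gene Ighm (629.6 and 589.7) passed on replicate 1 alone. Zap70 was read from the brightest of 3 probe sets and Ighm from the brightest of 16. Both of these sets carry the suffix s (suffixes are described below). The number of arrays limits the precision of every value.

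Few of the matrix and protease genes were above background in this liver RNA. Of the 71, 6 (8.45%) were above it on both arrays, against 25.0% of all named genes. They were decorin (Dcn), biglycan (Bgn), the collagen XVIII chain Col18a1, fibronectin (Fn1), the collagen I chain Col1a2 and the membrane-anchored metalloproteinase Mmp14. Another member, the collagen IV chain Col4a2, passed on replicate 1 alone, and 64 passed on neither array. The median member stood at percentile 31.4 of all genes on replicate 1 and 30.7 on replicate 2, where the median of all genes is 50. In bulk RNA, fewer cells of a type and less RNA per cell cannot be told apart. The count depends on the threshold. With the 90th percentile of the same background genes (314.3 and 323.7) it was 13 of 71, or 18.3%, against 38.1% of all genes, and with the 99th (1000.9 and 914.3) it was 5 of 71, or 7.04%, against 15.9%.

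**Figure D1:**
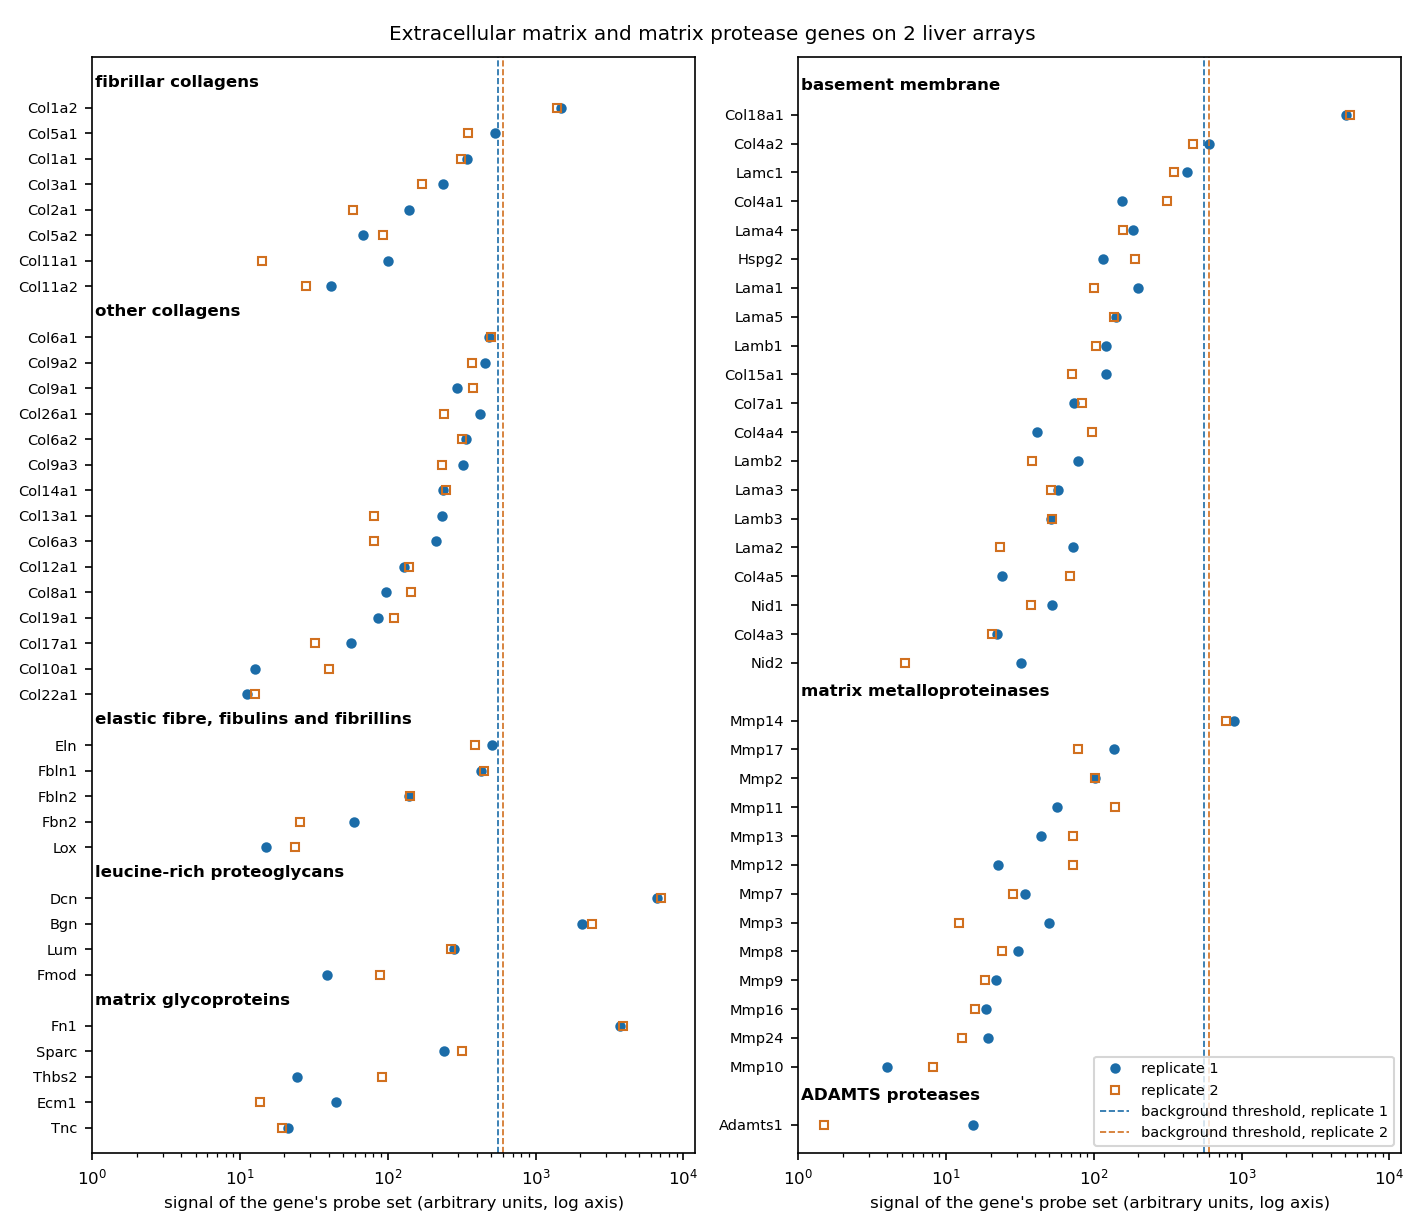
Signal of each of the 71 genes on replicate 1 (filled circles) and replicate 2 (open squares) on a log axis in arbitrary units, grouped by role and ordered by mean signal. Dashed lines mark the background thresholds of 556.2 and 601.7; 6 genes have both points to the right of them, and the points of dim genes lie farther apart than those of bright ones.

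Promoter sequences show how some of these genes are arranged. RefSeq windows of build GRCm38.p6, each from 250 bases before to 50 bases after a start site, were found for 47 of the 71 genes, and for 4 of the 6 above background. All windows of these 4 are printed, together with the stretch that the windows of Col4a1 and Col4a2 share. Capitals mark matches, on either strand, to the CCAAT box in those letters, to the GC box written GGGCGG, and to the TATA box written TATAAA. Marked motifs may overlap. Of all 32851 windows of this length, 37.4% held CCAAT, 35.7% GGGCGG and 13.6% TATAAA.
Col18a1, upstream window, chr10:77166481-77166780, minus strand: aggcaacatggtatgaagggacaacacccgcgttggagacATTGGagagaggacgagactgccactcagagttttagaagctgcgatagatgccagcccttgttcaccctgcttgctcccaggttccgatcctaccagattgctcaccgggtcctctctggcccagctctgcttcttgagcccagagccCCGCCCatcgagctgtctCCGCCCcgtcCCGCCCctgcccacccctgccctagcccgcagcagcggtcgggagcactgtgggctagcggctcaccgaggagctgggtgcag
Col18a1, downstream window, chr10:77113656-77113955, minus strand: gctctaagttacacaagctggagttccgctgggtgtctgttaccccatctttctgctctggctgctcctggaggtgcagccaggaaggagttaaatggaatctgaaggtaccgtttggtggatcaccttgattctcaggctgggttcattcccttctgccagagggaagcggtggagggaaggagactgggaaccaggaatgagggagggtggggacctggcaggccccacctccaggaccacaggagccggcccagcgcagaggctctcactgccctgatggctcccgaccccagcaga
Col1a2, chr6:4505368-4505667, plus strand: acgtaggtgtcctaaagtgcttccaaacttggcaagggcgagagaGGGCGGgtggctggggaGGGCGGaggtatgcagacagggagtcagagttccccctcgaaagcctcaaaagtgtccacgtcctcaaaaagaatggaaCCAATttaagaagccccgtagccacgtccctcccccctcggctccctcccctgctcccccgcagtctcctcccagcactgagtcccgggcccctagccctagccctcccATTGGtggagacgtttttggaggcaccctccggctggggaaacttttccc
Bgn, chrX:73483351-73483650, plus strand: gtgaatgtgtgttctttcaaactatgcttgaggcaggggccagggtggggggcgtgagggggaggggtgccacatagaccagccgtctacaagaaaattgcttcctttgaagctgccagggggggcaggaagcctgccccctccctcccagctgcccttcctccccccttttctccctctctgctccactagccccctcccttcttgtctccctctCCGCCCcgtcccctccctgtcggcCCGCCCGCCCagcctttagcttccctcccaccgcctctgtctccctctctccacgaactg
Mmp14, chr14:54431348-54431647, plus strand: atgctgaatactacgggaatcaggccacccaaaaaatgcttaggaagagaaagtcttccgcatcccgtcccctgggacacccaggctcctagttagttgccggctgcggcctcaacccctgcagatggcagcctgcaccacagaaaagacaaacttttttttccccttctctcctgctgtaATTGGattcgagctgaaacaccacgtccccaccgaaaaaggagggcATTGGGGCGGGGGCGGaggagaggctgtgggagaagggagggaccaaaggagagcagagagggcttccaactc
Col4a1 and Col4a2, shared part, chr8:11312777-11312854, plus strand: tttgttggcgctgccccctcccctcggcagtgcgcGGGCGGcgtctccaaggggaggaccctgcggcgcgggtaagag

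The 2 windows of Col18a1 lie 52.8 kb apart. The upstream one held 3 GC boxes and 1 CCAAT box, and the downstream one held none of the 3 motifs. As background, the upstream start of Col18a1 gives the short form of basement membranes and the downstream start the longer forms known from liver. The arrays did not separate these starts, because the annotation does not place the probe sets on transcript forms. The window of Col1a2 held 2 CCAAT and 2 GC boxes, that of Bgn 3 GC boxes, and that of Mmp14 2 of each. None of the 5 windows of these 4 genes held TATAAA. Among all 55 windows of the 47 genes, CCAAT was in 17, GGGCGG in 28 and TATAAA in 16. The 78 bases shared by Col4a1 and Col4a2 have a G and C content of 73.1%. These 2 genes are read in opposite directions from a common stretch, the known head-to-head arrangement of collagen IV genes. Both start sites lie inside it, Col4a2 at 11312805 (plus strand) and Col4a1 at 11312826 (minus strand), 21 bases apart. From these starts the first bases of the 2 transcripts overlap, so the printed stretch is not a gap between the starts.

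Of 4 leucine-rich proteoglycan genes 2 were above background, and of 5 matrix glycoprotein genes 1 was. Of both groups together this is 3 of 9, or 33.3%, near the 25.0% of all genes. Dcn encodes a leucine-rich proteoglycan that coats collagen fibrils and binds TGF-beta. It gave 6587 on replicate 1 and 7026 on replicate 2, a mean of 6806 ± 311 (SD, n = 2 arrays). That is 11.8 times the threshold on replicate 1 and 11.7 times on replicate 2, from 1 plain probe set. Bgn, its close relative on fibrils and cell surfaces, gave 2053 and 2421 (2237 ± 261), and its second set gave 609.0 and 763.4, so both sets were above background on both arrays. Fn1, the adhesive glycoprotein that hepatocytes secrete into plasma, gave 3706 and 3929 (3818 ± 157). For all 3 genes the signal on replicate 2 was the higher, by 1.07, 1.18 and 1.06 times.

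The other genes of these groups were not above background. Lumican (Lum), a further fibril proteoglycan, gave 281.8 and 268.3, and fibromodulin (Fmod) 38.7 and 89.2. Among the glycoproteins, Sparc, a collagen-binding matricellular protein, gave 241.8 and 317.7. Thrombospondin 2 (Thbs2), an inhibitor of vessel growth, gave 24.3 and 90.9. Ecm1 gave 44.7 and 13.6, and tenascin C (Tnc), a glycoprotein of developing and injured tissue, 21.2 and 19.1. The arrays agreed within 1.11-fold for Lum and Tnc, and differed over 2-fold for Fmod, Thbs2 and Ecm1.

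Of 8 fibrillar collagen genes, Col1a2 was the 1 above background (12.5%, against 25.0% of all genes). It encodes the second chain of type I collagen, the main collagen of scar. Its brighter probe set gave 1493 and 1402 (1447 ± 64.5), and its other set gave 277.8 and 204.6, under the threshold on both arrays. The brighter set carries the suffix r, which marks sets for which a probe selection rule was dropped. Affymetrix also uses the suffixes f, s, i and g, which have other meanings. Sets with any of the letters f, s, r, i or g are called suffixed here. The Col1a2 call thus rests on its r set, and without suffixed sets Col1a2 was not above background. Col1a1, the partner chain in the type I triple helix, gave 343.0 and 312.7 in its brighter set and 209.6 and 234.2 in the other, all under the threshold.

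The remaining fibrillar chains were not above background on either array. Col5a1, a chain of the minor collagen that starts type I fibrils, gave 527.6 and 348.3, near the threshold on replicate 1 (0.949 of it), while its second set gave 98.8 and 30.5. Col3a1, the collagen of reticular fibres, gave 236.8 and 170.5 in the brightest of 3 sets, and 5.3 and 15.6 in another. Col5a2 gave 68.5 and 92.6. The cartilage chains Col2a1 (138.9 and 58.2), Col11a1 (99.7 and 14.2) and Col11a2 (41.0 and 27.8) reached at most 0.097 of the threshold on replicate 2.

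Basement membrane genes made up the largest role group, with 20 measured, and 1 of them (5.0%, against 25.0% of all genes) was above background on both arrays. Col18a1 encodes a heparan sulphate proteoglycan collagen whose end fragment is endostatin. Its brightest set gave 5052 and 5445 (5248 ± 278). Of its 5 sets, 4 were above background on both arrays: the others gave 3930 and 4172, 3772 and 4229, and 948.2 and 958.4. The fifth gave 32.7 and 119.3, although the annotation ties it to the same sequence record as the brightest set. It was the member with the most sets above background, and its 2 start windows are printed above.

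The type IV collagen chains form the network of basement membranes. Col4a2 gave 600.2 and 466.9 (533.5 ± 94.3), above the threshold on replicate 1 and below it on replicate 2. Col4a1, its partner in the common heterotrimer, gave 154.3 and 313.7. Col4a1 was thus higher on replicate 2 and Col4a2 higher on replicate 1, though values under the threshold have no reliable order. Each was read from 1 set, and Col4a1 was not above background on either array. The chains of specialised membranes, Col4a3 (22.0 and 20.5), Col4a4 (41.3 and 97.1) and Col4a5 (24.0 and 69.1), were all far under the threshold.

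None of the 9 laminin chains was above background, against 25.0% of all genes. Laminins are cross-shaped trimers of an alpha, a beta and a gamma chain. The gamma chain Lamc1 gave 423.5 and 348.5 in its brighter set, of suffix f, and 66.2 and 76.3 in its other set. Lama4, an alpha chain of vessel walls, gave 185.2 and 156.3, and Lama5 141.8 and 136.7. Lama1 gave 198.5 and 100.6, and Lamb1 119.9 and 104.1. Lama2, Lama3, Lamb2 and Lamb3 lay between 23.0 and 78.0 over both arrays. Of the linker proteins, perlecan (Hspg2) gave 114.9 and 190.2, nidogen 1 (Nid1) 51.7 and 37.6, and nidogen 2 (Nid2) 32.1 and 5.3. Col15a1, a relative of Col18a1, gave 120.5 and 70.8, and the anchoring fibril collagen Col7a1 73.5 and 82.8.

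The 15 other collagen chains were all under the threshold on both arrays, whereas 25.0% of all genes were above it on both. Collagen VI forms beaded filaments from 3 chains. Of these Col6a1 gave 480.6 and 496.9 in its brighter set, and 7.4 and 12.5 in its other set, of suffix f. Col6a2 gave 339.2 and 318.0, and Col6a3 212.4 and 80.9. The brighter set of Col6a1 and the set of Col6a2 repeated within 1.07-fold, whereas Col6a3 differed 2.62-fold. The collagen IX chains, known from cartilage fibrils, gave 293.3 and 376.4 for Col9a1 and 452.6 and 369.4 for Col9a2. Col9a3 gave 320.5 and 233.5 in its brighter set and 59.9 and 50.1 in its other set, of suffix i. Col14a1, which binds the surface of fibrils, gave 238.1 and 246.6. Col26a1 gave 421.5 and 239.1. The others included Col22a1 at 11.1 and 12.6 and Col10a1, the collagen of growing cartilage, at 12.6 and 40.1.

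The elastic fibre genes were likewise not above background, with 0 of 5 passing, against 25.0% of all genes. Elastin (Eln) gave 511.3 and 387.4 in its brighter set and 9.5 and 48.1 in the other. Fibulin 1 (Fbln1), a glycoprotein of elastic fibres and of plasma, gave 427.1 and 448.1 in the brightest of 4 sets and 328.4 and 366.8 in the next. Its 2 dimmer sets lay between 17.9 and 46.2. Fbln2 gave 139.7 and 142.0, and fibrillin 2 (Fbn2) 59.5 and 25.5. Lysyl oxidase (Lox), which cross-links collagen and elastin, gave 15.1 and 23.6 in its brighter set and 1.9 and 4.1 in its other one.

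**Figure D2:**
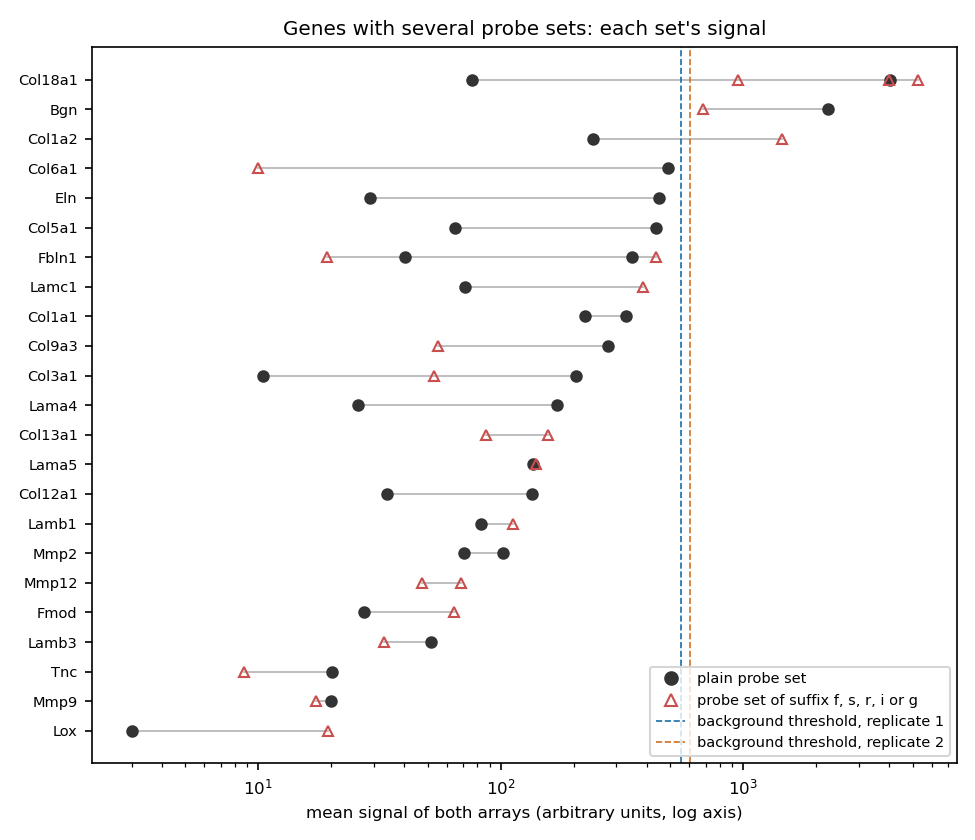
Mean signal of both arrays for every probe set of the 23 genes with more than 1 set, on a log axis in arbitrary units; filled circles are plain sets, open triangles sets with a suffix letter, and grey lines join the sets of a gene. Bgn has both sets above the dashed thresholds, Col18a1 4 of 5 and Col1a2 1 of 2, and the other 20 genes have none.

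Of the 23 members with several sets, 3 had any set above background on both arrays. Among these, the sets of Bgn gave the same call and those of Col18a1 and Col1a2 did not. Taking probe sets singly, 10 of the 100 were above it, against 20.7% of the 10833 sets that name 1 gene. Members with 1 set were above background in 3 of 48 cases (6.25%), against 22.8% of all genes with 1 set. For members with several sets it was 3 of 23 (13.0%), against 31.6% of all such genes. The member share was thus the lower in both strata.

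Of the 13 matrix metalloproteinases 1 was above background (7.69%, against 25.0% of all genes). Mmp14, a collagenase held in the cell membrane that also activates the zymogen of Mmp2, gave 888.6 and 785.2 (836.9 ± 73.1), or 1.60 and 1.30 times the threshold. It was read from 1 plain set, lay under the brightest background gene on both arrays (1164.5 and 1043.2), and was not above the 99th percentile threshold. The gelatinase Mmp2 gave 102.1 and 101.5 in its brighter set and 86.0 and 55.0 in the other. The gelatinase Mmp9, which leukocytes release, gave 21.7 and 18.3, and its other set 22.2 and 12.3.

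The secreted collagenases Mmp13 (44.0 and 72.3) and Mmp8 (30.7 and 23.8) were not above background. Neither were the stromelysins Mmp3 (49.3 and 12.2), Mmp10 (4.0 and 8.1) and Mmp11 (56.5 and 139.9). The macrophage elastase Mmp12 gave 22.6 and 71.7 in the set read for it and 125.6 and 11.2 in its other set, so the arrays ranked in opposite order in the 2 sets. Matrilysin (Mmp7) gave 34.0 and 28.5. The membrane-bound Mmp16, Mmp17 and Mmp24 lay between 12.9 and 136.7. The 1 measured ADAMTS gene, Adamts1, which cleaves large proteoglycans, gave 15.2 and 1.5 from a set of suffix r.

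Differences between the arrays were small for the bright members and large for the dim ones. Of the 71 members 20 (28.2%) differed over 2-fold between the arrays, against 14.0% of all named genes. None of those 20 was above background on either array. Among the 6 members above background on both arrays 0 differed over 2-fold, against 0.097% of all 2062 such genes, and their largest difference was the 1.18-fold of Bgn. Among the members 9 of the 20 were higher on replicate 2 and 11 lower, and the largest was Adamts1, followed by Col11a1 (7.02-fold) and Nid2 (6.06-fold).

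The share over 2-fold was read by signal. Below a geometric mean signal of 50 it was 12 of 24 members, against 39.6% of all genes in that band. From 50 to 100 it was 5 of 12, against 30.9%, and from 100 to 200 it was 2 of 12, against 10.4%. From 200 to 500 it was 1 of 16, against 2.71%, the 1 being Col4a1, and from 500 it was 0 of 7, against 0.32%. Of the members, 33.8% lay in the dimmest band, against 19.6% of all genes. The median log2 difference of the 6 members above background, replicate 2 minus replicate 1, was 0.09, against 0.02 for all genes above background. Over all 71 members it was -0.13, against -0.02 for all genes.

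**Figure D3:**
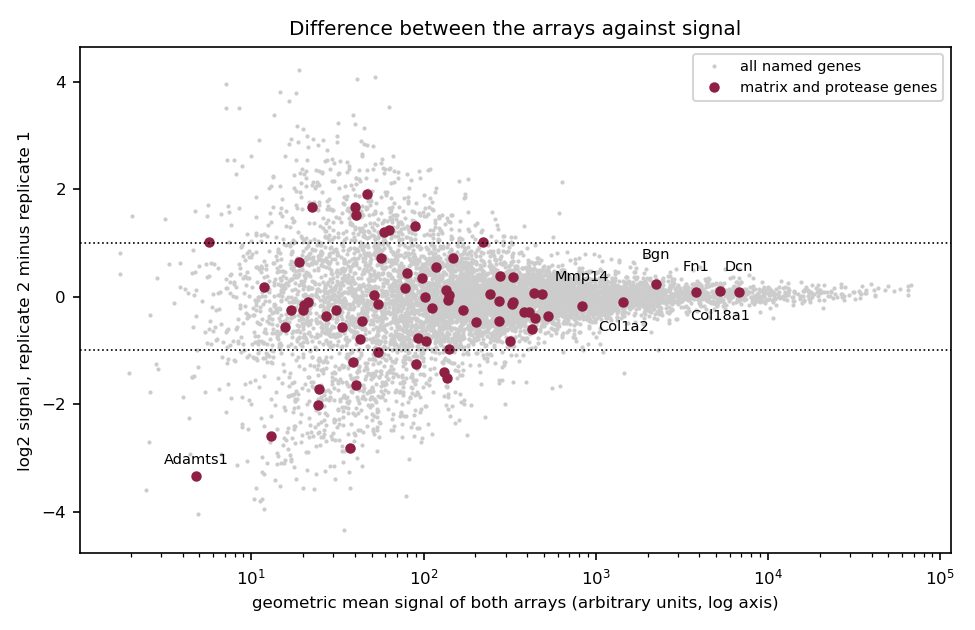
Log2 signal on replicate 2 minus replicate 1 (vertical axis) against the geometric mean signal of both arrays (log axis, arbitrary units) for all named genes (grey) and the 71 matrix and protease genes (dark red). Dotted lines mark 2-fold; the 6 labelled genes above background lie between them, and Adamts1 shows the largest difference of the members.

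Genes that act on the matrix were counted in lists written for this purpose. Of 15 measured inhibitors and activators of matrix proteases, 5 (33.3%) were above background on both arrays, near the 25.0% of all genes. They were plasminogen (Plg, 41450 and 42597), the broad protease inhibitor Pzp (32391 and 31266), Serpinf2, the plasmin inhibitor (11104 and 10763), the metalloproteinase inducer Bsg (6193 and 6164) and Hgfac, which activates hepatocyte growth factor (5235 and 5227). The tissue inhibitors of metalloproteinases were not among them. Timp1 gave 529.9 and 745.5 and so passed on replicate 2 alone. Timp2 gave 324.5 and 261.1, and Timp3 373.7 and 306.9. The plasminogen activators Plat (220.0 and 127.9) and Plau (87.9 and 143.3) were not above background. The set read for Plg carries the suffix f.

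Of 15 measured genes of collagen maturation 5 (33.3%) were above background on both arrays, near the 25.0% of all genes, and Plod3 (581.6 and 600.7) and Colgalt1 (839.0 and 593.7) passed on replicate 1 alone. These were the proline isomerase Ppib (4243 and 3515), P4hb, protein disulphide isomerase and a subunit of prolyl hydroxylase (1892 and 1859), Mia3, needed for collagen export (921.3 and 1278), Bmp1, the procollagen C-proteinase (828.3 and 902.8), and Crtap (662.9 and 721.0). Several of these serve other secreted proteins too. The set read for P4hb carries the suffix r. The collagen-specific chaperone Serpinh1 gave 218.1 and 144.8, the catalytic prolyl hydroxylase subunits P4ha1 140.3 and 67.4 and P4ha2 304.3 and 290.7, and none of the 3 was above background.

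Of 28 measured matrix receptors 8 (28.6%) were above background on both arrays, near the share of all genes. Itgb1, the beta chain of most matrix-binding integrins, gave 1869 and 2132, Itgb5 1269 and 1328, and the alpha chain Itgav 733.8 and 773.3. The sets read for Itgb1 and Itgav carry the suffix f. Dystroglycan (Dag1), a laminin receptor, gave 1268 and 1207. The syndecans Sdc2 (1054 and 1196), Sdc4 (859.6 and 746.4) and Sdc1 (702.8 and 686.4) and the binding protein Lgals3bp (738.4 and 1275) completed the 8. Of the other alpha chains, the laminin receptors Itga3, Itga6 and Itga7 were not above background, with signals between 5.9 and 497.6. Nor were Itga4, Itga5 and Itga8, which like Itgav bind fibronectin, with signals between 16.8 and 103.5.

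Of 39 measured matrix proteins outside the 71 genes, 6 (15.4%, against 25.0% of all genes) were above background. Vitronectin (Vtn), the plasma adhesion protein made by hepatocytes, gave 17426 and 16964. The calcium-binding basement membrane protein Smoc1 gave 2476 and 2652, the serine protease inhibitor Tfpi2 1126 and 1120, the TGF-beta carrier Ltbp4 914.8 and 1060, Mfge8 704.6 and 749.7, and reelin (Reln), which stellate cells make in liver, 687.9 and 672.0. Agrin (Agrn) passed on replicate 1 alone (689.7 and 586.3).

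**Figure D4:**
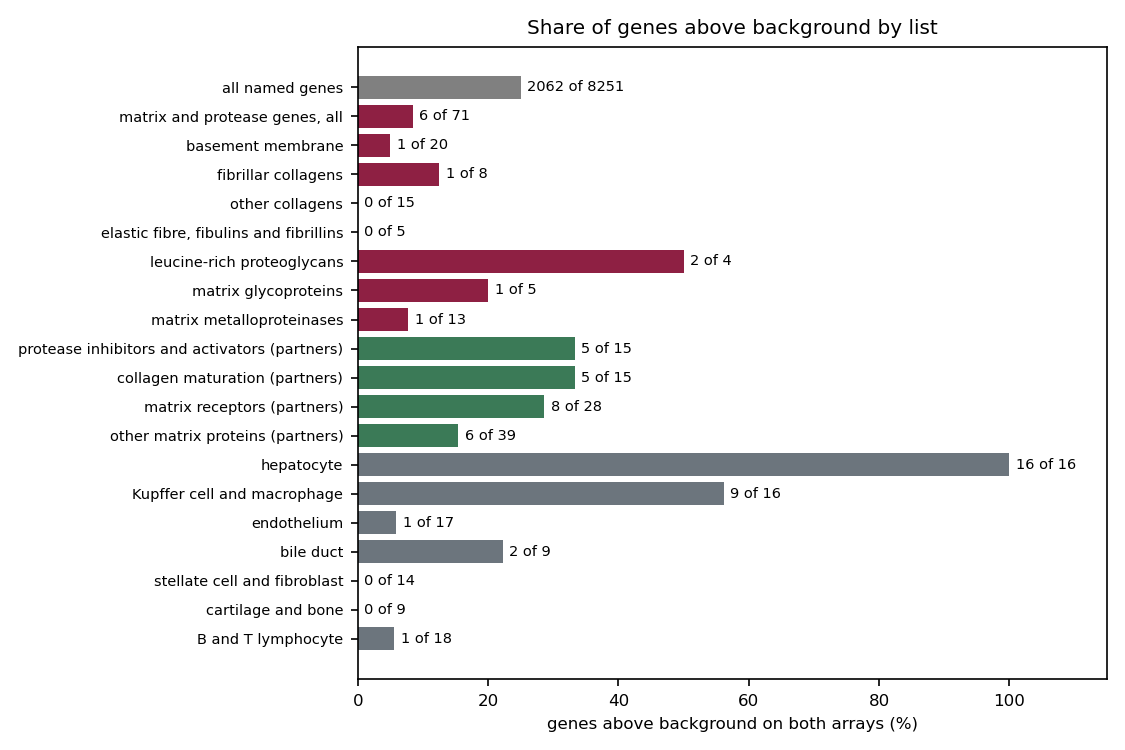
Percentage of measured genes above background on both arrays (bars from 0) for all named genes (grey, top), the matrix and protease genes and their role groups (dark red), partner lists (green) and cell type markers (lower grey bars), with counts at the bars. The 71 genes stand at 8.45% against 25.0% of all genes; the 1 ADAMTS gene is left out of the role bars.

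Markers of the cells that make liver matrix were read beside these counts and beside the 25.0% of all genes above background. Of 14 measured stellate cell and fibroblast genes 0 were above background, with signals from 22.5 to 349.6 on replicate 1 and from 11.0 to 232.8 on replicate 2. The defining genes desmin (Des, 349.6 and 188.8), Pdgfrb (82.9 and 64.5) and Acta2, smooth muscle actin (143.6 and 185.4), were among them. Gfap (125.4 and 153.8), also in this list, was among the brain genes used for the background threshold as well. The stellate cell and fibroblast list was thus not fully independent of the threshold. Of 17 endothelial genes 1 was above background, Eng (3677 and 4026), and Stab1, a receptor of sinusoidal endothelium, passed on replicate 1 alone (599.0 and 495.7). Of 9 bile duct genes 2 were, Anxa4 (1051 and 940.2) and Tff2 (609.0 and 679.9), while the duct keratins Krt7 (26.7 and 24.0) and Krt19 (87.0 and 58.9) were not. Of 16 Kupffer cell and macrophage genes 9 were, led by C1qc (2541 and 2986), Clec4f (2408 and 2615) and C1qa (2542 and 2387). Cd14 passed on replicate 1 alone (584.5 and 502.1). The other 6 passed on neither array, among them Adgre1 (192.7 and 251.7), Cd68 (529.0 and 463.3) and Marco (23.6 and 18.8). The part of cell makeup in the signals of the matrix genes was not tested.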

How the data were processed

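The authors deposited 1 linear signal intensity per Affymetrix probe set for each of 2 liver arrays. Not given in the sources used here were the summary method, software and scaling. The mean after trimming 2% at each end was 500.5 on both arrays. Of 12488 probe sets, 66 were controls and were left out. Genes came from the platform annotation, which named 1 gene for 10855 sets, several for 396 and none for 1237. By gene identifier 10839 matched the RefSeq table of GRCm38.p6, with 0 symbols changed. Sets with several genes or none were not used.

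A gene was read from the set with the highest mean log2 signal. Above background means above the 95th percentile of the 93 background genes on each array. With 1 group no test was run. Members, lists, rules and alternatives were chosen with earlier results of these data known. Named genes are the members above background on either array, the extremes of each role, members with disagreeing sets, and the brightest or defining genes of the other lists; further members were named to complete each role. Alternatives were the mean of a gene's sets, plain sets alone, quantile normalization, other thresholds, log2(value + 32), other filters, centring, and leaving out either array. Counting was tested on simulated data. Values were computed with pandas 2.3.3 and numpy 2.4.6 in Python 3.11.15, with scipy 1.17.1, and drawn with matplotlib 3.10.9.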

Additional observations from a re-analysis of the deposited data

How the results depend on the processing

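The count of 6 members above background was 11 of 65 without suffixed probe sets (36.5% of all genes), 13 with the 90th percentile threshold and 22 with the median of all probe sets (54.6% of all genes). It was 8 with the mean of a gene's sets (32.2% of all genes), 6 with quantile normalization (25.0%) and 5 with the 99th percentile (15.9%). On replicate 1 alone it was 7 (28.0% of all genes), and on replicate 2 alone 6 (26.0%). In each setting with both arrays the member share stayed below that of all genes. Dcn, Fn1, Bgn and Col18a1 were above background in all 8 alternatives, Mmp14 was not with the 99th percentile, and Col1a2 was not without suffixed sets. Of the 7 members added by the 90th percentile threshold, Col4a2, Col5a1, Col6a1, Col9a2, Eln and Fbln1 were also added without suffixed sets, and Lamc1 was not. Without suffixed sets the thresholds were 306.8 and 323.2.

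The median percentile of 30.86, from the mean of both arrays, was 32.09 with the mean of a gene's sets, 32.66 without suffixed sets, and 30.7 to 31.38 on either array alone. The 20 members over 2-fold between arrays fell to 0 among genes above background on at least 1 array and to 4 with log2(value + 32). The shares of all genes at these settings were not counted. Of all 2062 genes above background on both arrays, 0.097% differed over 2-fold, so such differences are rare among bright genes in general. The median log2 difference of 0.09 was -0.047 with the mean of a gene's sets and -0.13 with no filter, so its direction is not settled. Values under the threshold have no reliable order. No paired analysis was possible because the labels give 1 group.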

Other observations

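Genes of cartilage and bone were read because several collagen members are known from those tissues. Of 9 measured, 0 were above background on both arrays, against 25.0% of all genes. Their median signals were 46.4 and 48.9 on replicates 1 and 2. The brightest was the phosphatase Alpl, which liver also makes (441.7 and 433.5), followed by Chad (377.3 and 294.9) and Ihh (202.2 and 177.2). Each of these was above the median of all probe sets on both arrays, as were 54.6% of all named genes. The median of named genes, each read from its brightest set, was higher, at 228.8 and 219.2. Ihh lay under it on both arrays. The aggrecan gene Acan gave 31.7 and 48.9. The cartilage collagens Col9a1, Col9a2 and Col9a3 lay between 233.5 and 452.6, above the median of all probe sets (163.2 and 157.6) on both arrays and under the background threshold. For Col9a3 this holds for its brighter set alone. Its other set, of suffix i, gave 59.9 and 50.1, under that median. The other collagens known from cartilage, Col2a1, Col11a1, Col11a2 and Col10a1, lay between 12.6 and 138.9, under that median on both arrays.

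Among the 26 suffixed probe sets of the members, 5 were above background on both arrays (19.2%, against 17.9% of all suffixed sets), and among the 74 plain sets 5 were (6.76%, against 21.4%). The suffixed sets above background belonged to Col18a1, Bgn and Col1a2. Of the 8 brightest background genes, 6 were read from suffixed sets, such as Tnp1, a spermatid protein, at 1164.5 and 1043.2.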
